A study of Mus musculus with 6 samples.

Results

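The 77 genes described here are named as proteins of the mitochondrial ribosome. They were chosen by symbol, as every gene whose symbol starts with Mrpl or Mrps followed by a digit, which gave 77 of the 23238 symbols counted. By name, 48 of them (Mrpl) belong to the large subunit and 29 (Mrps) to the small subunit. The rule uses the symbol alone. None of the 77 symbols was repeated, and all 77 had enough counts to be tested. Transcripts were counted in gastrocnemius muscle of wild-type mice given as C57/BL6J WT in the labels. Every mouse was 26 months old. The 3 farnesol libraries came from mice that received farnesol, a sesquiterpene alcohol, at 350 mg/kg by mouth for 30 days. The 3 vehicle libraries came from mice that received saline with 5% DMSO by mouth over the same 30 days. No share of DMSO was recorded for the farnesol mice.

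The mitochondrial ribosome, or mitoribosome, makes the few proteins that mitochondrial DNA encodes, all of them subunits of the respiratory chain complexes or of ATP synthase. Its ribosomal RNAs are transcribed inside the organelle, whereas its proteins are encoded in the nucleus, made in the cytosol and imported. The small subunit decodes the messenger RNA, and the large subunit joins amino acids and passes the new chain through an exit tunnel towards the inner membrane. Many of its proteins descend from those of the bacterial ribosome, and others are found only in mitochondria. Muscle fibres depend on it to keep up oxidative phosphorylation.

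Libraries held 9895700 to 12707751 counts, of which 28472 to 39438 fell on the 77 genes, and single genes averaged 35.5 to 1471 counts per library. All 12 myofibre markers examined, among them Acta1, Ckm and Myh4, were present in every library, and their summed level was 167914 to 253843 CPM over the 6 libraries (CPM, in which each count is divided by the library total after trimmed-mean, TMM, scaling). Farnesol replicate 1 stood apart. The ribosomal RNA precursor Rn45s took 4.97% of its counts, against 9.92% to 15.4% in the other 5 libraries (Wilson 95% intervals reached at most 0.0217 percentage points either side, counting error only). In that library alone, short transcripts tended to lie above their mean over the 6 libraries and long transcripts below it (Spearman rho of -0.26 between deviation and transcript length over the tested genes, against 0.02 to 0.11 in the other 5, as a description across genes). The 77 genes had a median transcript length of 1849 bases, against 3422 bases over all 11674 tested genes, and the part of that library's length relation in the results was not tested. The main results that rest on this library are therefore given with it and without it. For some single genes and groups of genes, such as those by descent or motif, only values with it are given. The titles call the libraries of each group biological replicates, but whether each came from a mouse of its own is not said. The p-values therefore cover only the spread among the libraries, which may in part be technical. In whole muscle, fewer cells of a type and less RNA per cell cannot be told apart.

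Farnesol was set against vehicle to ask how transcripts of aged muscle differ after feeding. Most mitochondrial ribosomal protein genes had slightly higher levels in farnesol muscle, and no single gene passed the test. The summed level of the 77 genes was 3476, 3072 and 3045 CPM in the farnesol libraries, against 2950, 2881 and 2833 CPM in the vehicle libraries. All farnesol values lay above all vehicle values, with replicate 1 well above the other farnesol libraries and those close to the highest vehicle value. The means were 3198 ± 241 CPM in farnesol and 2888 ± 58.6 CPM in vehicle muscle (SD, n = 3 each), a ratio of 1.11. Without the scaling, the share of a library's counts that fell on these genes was 0.385%, 0.289% and 0.298% in farnesol and 0.278%, 0.260% and 0.323% in vehicle libraries (Wilson 95% intervals reached at most 0.0038 percentage points either side), and the groups then overlapped.

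**Figure D1:**
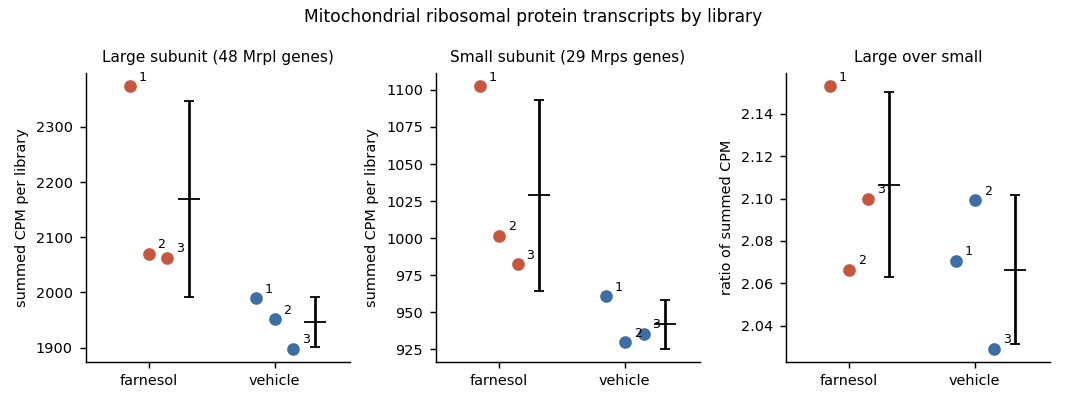
Summed CPM of the 48 Mrpl genes, summed CPM of the 29 Mrps genes and the ratio of both sums (vertical axes, which do not start at 0), with 1 point per library labelled by its replicate number and the mean ± SD of 3 libraries beside it. Farnesol replicate 1 is highest for both subunits, at 2374 and 1102 CPM, and the ratios of farnesol and vehicle libraries overlap.

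By gene, 63 of 77 had a log2 fold change (farnesol over vehicle) above 0, against 49.1% of all tested genes. The median log2 fold change was 0.13, against -0.01 over all tested genes. With a Benjamini-Hochberg adjusted p under 0.05 in edgeR's quasi-likelihood test, 0 of 77 genes were called, as were 0% of all tested genes. At an unadjusted p under 0.05 the test called 3 of 77, all higher, against 3.01% of all tested genes in either direction and 1.75% higher. DESeq2 and limma-voom also called 0 of 77 after adjustment and 3 of 77 before it. The 3 libraries of each group did not overlap for 10 of 77 genes (13.0%), against 8.82% of all tested genes. In 8 of the 10 the farnesol values lay above (4.75% of all tested genes), and in 2 they lay below (4.07%).

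The differences were small. In 54 of 77 genes the log2 fold change was less than 0.20 in size, and the median standard error of a single gene was 0.21. The 95% interval lay within 1.5-fold in both directions for 39 genes, while for 45 genes its upper end was under 1.5-fold. The intervals of 3 genes left out a fold of 1, those of Mrpl28, Mrpl36 and Mrps18a.

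**Figure D2:**
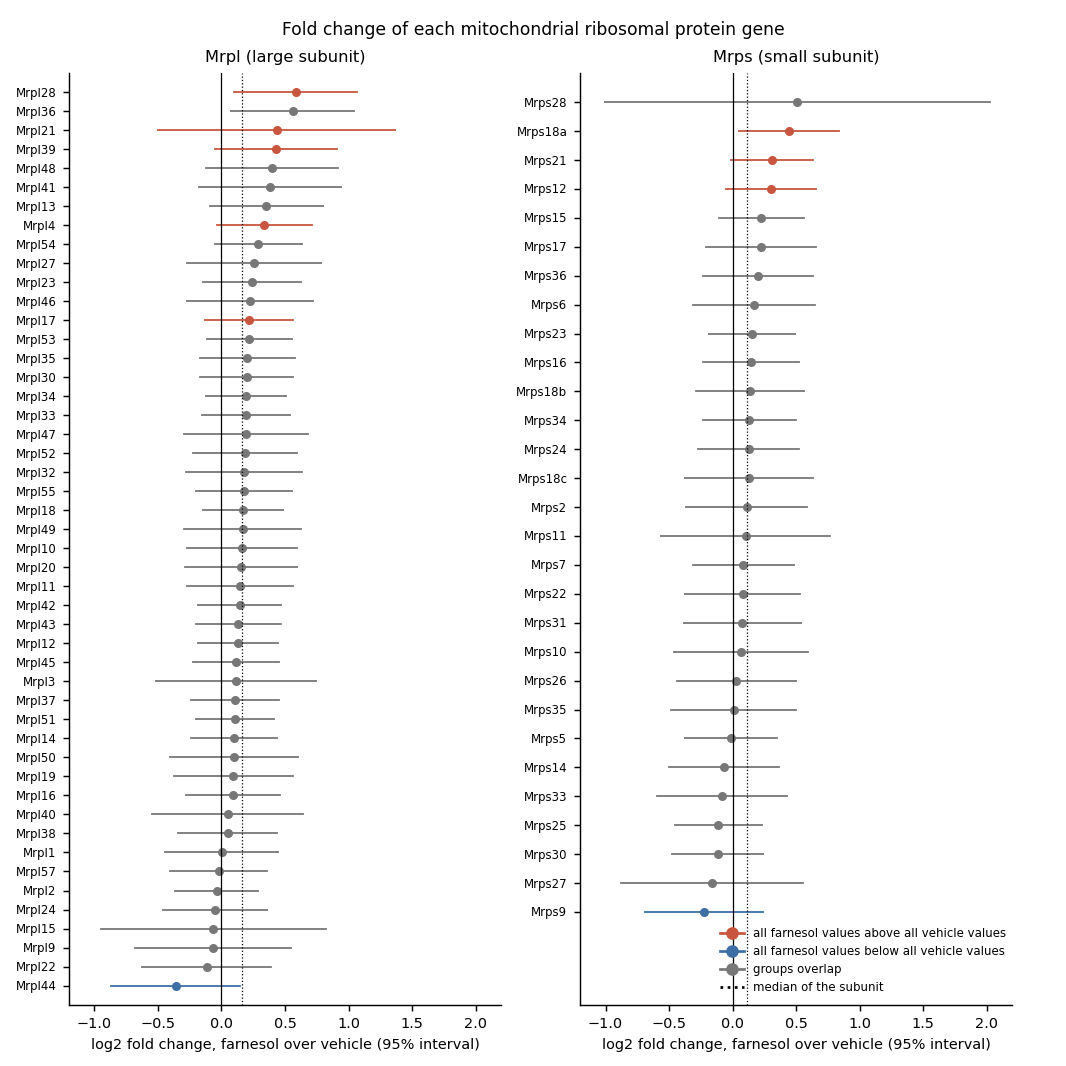
Log2 fold change, farnesol over vehicle, of each of the 77 genes (points) with its 95% interval (lines), the Mrpl genes on the left and the Mrps genes on the right, in falling order. Most points lie slightly right of 0 with intervals that cross it; dotted lines mark the subunit medians of 0.16 and 0.11, and colours mark the 8 genes with all farnesol values above and the 2 with all farnesol values below the vehicle values.

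The difference was largest in farnesol replicate 1. This library held the highest of the 6 values for 41 of the 77 genes, against 12 and 11 genes in farnesol replicates 2 and 3, and 5, 3 and 5 genes in the vehicle libraries. The mean deviation of the 77 genes from their own mean over the 6 libraries, on the log2(CPM + 2) scale, was 0.15, 0.03 and 0.01 in the farnesol libraries and -0.07, -0.05 and -0.07 in the vehicle libraries. All 3 farnesol means were thus above 0 and all 3 vehicle means below it, with replicate 1 the farthest from 0. Without farnesol replicate 1, 57 of 77 genes had a log2 fold change above 0, against 49.4% of all genes tested in that fit. The median was 0.07, and 0 of 77 genes had an unadjusted p under 0.05 in edgeR, against 315 of all 12036. The log2 ratio of the group means of the summed level was 0.15 with that library and 0.08 without it. Across the fits that left out each library in turn, 46 genes were higher in farnesol in all 6, 4 were lower in all 6, and 27 changed sign at least once.

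**Figure D3:**
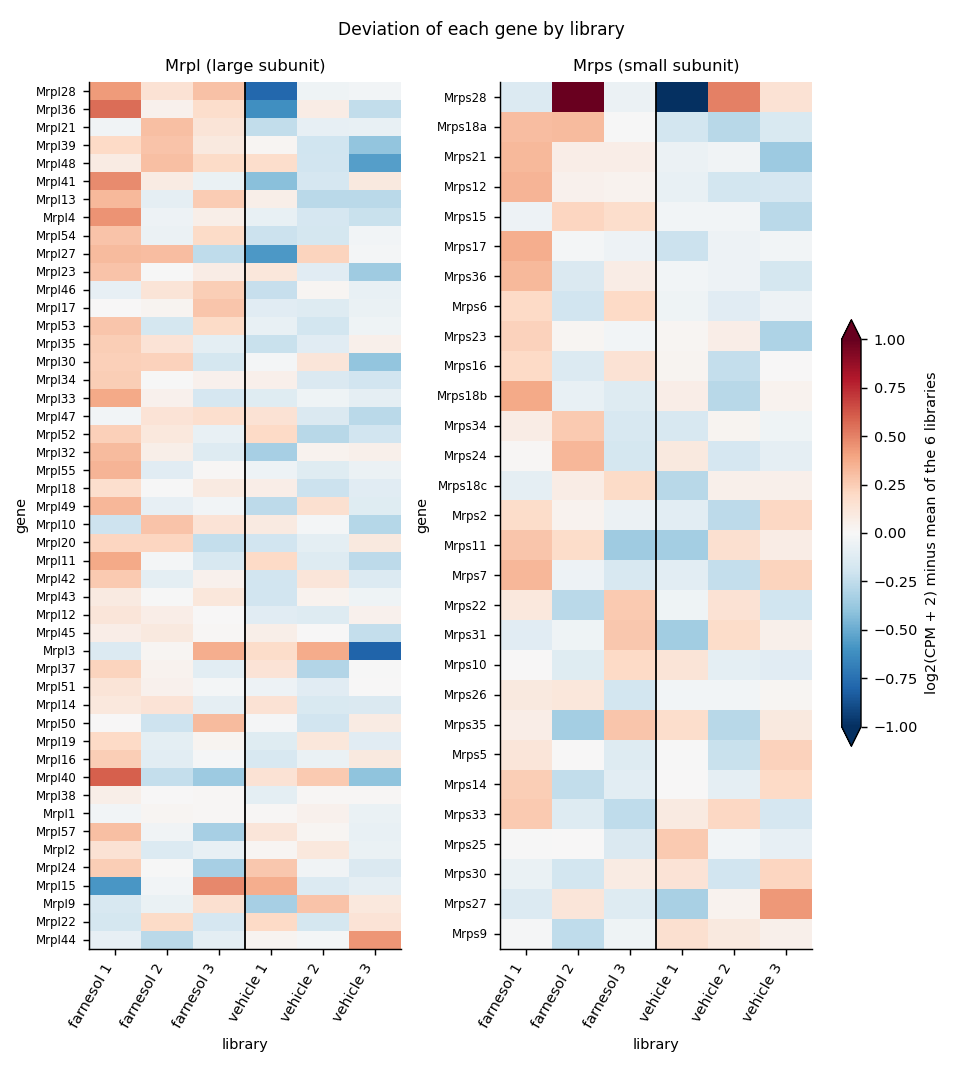
Deviation of each gene (rows) from its mean over the 6 libraries (columns, farnesol left of vehicle) on the log2(CPM + 2) scale, in the order of the fold changes; red is above and blue below the mean, and colours saturate at 1 and -1. The farnesol 1 column is red for most genes of both subunits, whereas farnesol 2 and farnesol 3 mix pale red and pale blue.

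The large and the small subunit were compared next. The 48 Mrpl genes summed to 2374, 2070 and 2063 CPM in the farnesol libraries, against 1989, 1951 and 1898 CPM in the vehicle libraries. The 29 Mrps genes summed to 1102, 1002 and 982 CPM in the farnesol libraries, against 961, 930 and 935 CPM in the vehicle libraries. Within each subunit the farnesol values all lay above the vehicle values, with ratios of the means of 1.11 for the large and 1.09 for the small subunit. On the mean deviation per gene (log2 scale, as above) the large subunit had 0.17, 0.03 and 0.02 in farnesol and -0.06, -0.05 and -0.11 in vehicle libraries. The small subunit had 0.13, 0.02 and -0.01 in farnesol and -0.09, -0.05 and -0.01 in vehicle libraries, so that farnesol replicate 3 and vehicle replicate 3 were level. The ratio of large to small was 2.15, 2.07 and 2.10 in farnesol and 2.07, 2.10 and 2.03 in vehicle libraries. These values overlapped, with means of 2.11 ± 0.0437 in farnesol and 2.07 ± 0.0352 in vehicle muscle (SD, n = 3 each), and the gap between the means was about the size of the SDs.

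Among Mrpl genes, 41 of 48 were higher in farnesol with a median log2 fold change of 0.16, and 5 had all farnesol values above and 1 below the vehicle values. Among Mrps genes, 22 of 29 were higher with a median of 0.11, and 3 had all farnesol values above and 1 below. Groups that did not overlap were thus similar in share, 12.5% of Mrpl and 13.8% of Mrps genes. Over all tested genes the share was 8.82% (4.75% above and 4.07% below). The medians differed by 0.05 (large minus small), and this difference ran from 0.00 to 0.11 when each library was left out in turn. It was 0.00 without vehicle replicate 3 and 0.11 without either of the other vehicle libraries. Without farnesol replicate 1 the medians were 0.11 for Mrpl and 0.06 for Mrps genes. Symbols do not always give the place of a protein: in solved mitoribosome structures, the products of Mrps18a (named mL66 there) and Mrps30 (mL65) sit in the large subunit. Mrps36, long counted among the small subunit proteins, is now known as a component of the oxoglutarate dehydrogenase complex. With those genes placed by structure, the large subunit had 50 genes with a median of 0.16 and the small 26 genes with a median of 0.11.

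**Figure D4:**
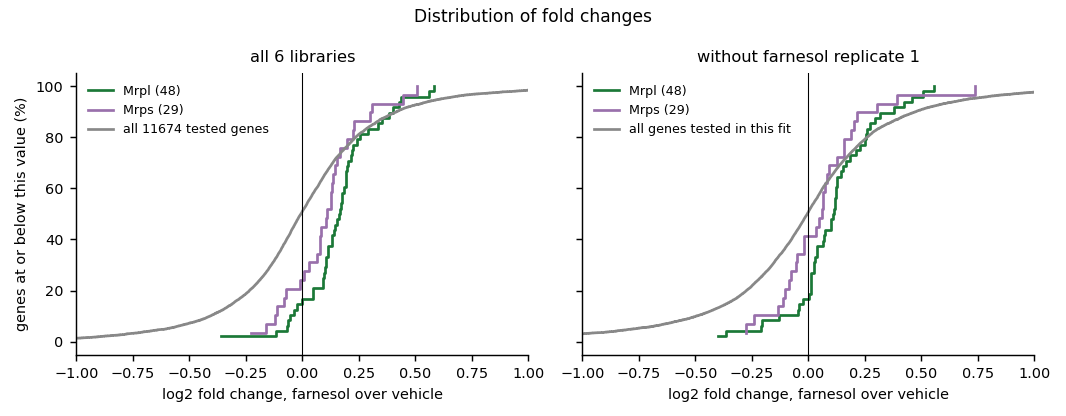
Share of genes (percent, vertical axis) at or below each log2 fold change, farnesol over vehicle (horizontal axis), for the 48 Mrpl genes, the 29 Mrps genes and all tested genes, with all 6 libraries on the left and without farnesol replicate 1 on the right. Both subunit curves lie right of the grey curve below 0, and their medians move from 0.16 and 0.11 on the left to 0.11 and 0.06 on the right.

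Genes were also grouped by the descent of their proteins, a grouping drawn up after the values were seen. The 48 proteins with bacterial relatives had a median log2 fold change of 0.16, with 40 higher in farnesol, 7 with all farnesol values above and 1 with all below the vehicle values. The 29 found only in mitochondria had a median of 0.11, with 23 higher, 1 with all farnesol values above and 1 with all below. Over all tested genes these shares were 4.75% above and 4.07% below. By subunit, the medians were 0.17 for the 30 bacterial and 0.14 for the 18 mitochondrial Mrpl genes, and 0.13 for the 18 bacterial and 0.03 for the 11 mitochondrial Mrps genes. The last group had the lowest share of higher genes, 7 of 11. Subunits were taken by name here, so that group holds Mrps30 and Mrps36 (log2 fold changes -0.12 and 0.20), which structure places outside the small subunit. No test was made between these groups.

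Among large subunit proteins of bacterial descent, Mrpl28 had the smallest p of all 77 genes. Mrpl28, the bL28 protein, had 31.0, 25.2 and 28.2 CPM in the farnesol libraries, against 12.3, 21.9 and 22.1 CPM in the vehicle libraries. The groups did not overlap, and vehicle replicate 1 was far below the other vehicle libraries. Its log2 fold change was 0.58 with a standard error of 0.23 (fold 1.5, 95% interval 1.07 to 2.09, unadjusted p = 0.0200 and adjusted p = 1.0 in edgeR). That log2 fold change was 0.35 without vehicle replicate 1 and 0.51 without farnesol replicate 1. Mrpl28 lies on chromosome 17 from 26123503 to 26126613 on the plus strand (GRCm38.p6).

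Mrpl36, the small bL36 protein, had 32.8, 22.3 and 24.7 CPM in farnesol and 13.4, 22.9 and 17.9 CPM in vehicle libraries. The groups overlapped, since vehicle replicate 2 lay above farnesol replicate 2. The log2 fold change was 0.56 with a standard error of 0.23 (unadjusted p = 0.0260 and adjusted p = 1.0 in edgeR), and 0.38 without farnesol replicate 1. Exons of Mrpl36 share bases with Ndufs6 on the opposite strand, a complex I subunit gene with 150 CPM and a log2 fold change of 0.21. Whether counting used strand is not given in the sources used here, so reads of such pairs may be mixed. In all, 22 of 77 genes share exonic bases with another gene. Mrps6, Mrps24 and Mrps34 share them with a gene on the same strand, where use of strand would not part the reads.

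Mrpl4, the uL4 protein that helps line the exit tunnel, had 60.7, 42.4 and 45.8 CPM in farnesol and 41.6, 39.0 and 37.4 CPM in vehicle libraries. No values overlapped, though farnesol replicate 2 lay just above the highest vehicle value. The log2 fold change was 0.34 with all libraries (fold 1.26, 95% interval 0.973 to 1.64) and 0.17 without farnesol replicate 1. Mrpl21, the bL21 protein, was the scarcest of the 77 genes in CPM, with 3.08, 4.44 and 3.71 CPM in farnesol and 2.40, 2.93 and 2.97 CPM in vehicle libraries. Its groups did not overlap either, by a narrow margin, and its interval was wide (fold 1.35, 95% interval 0.708 to 2.58). Mrpl21 shares exonic bases with Ighmbp2 on the opposite strand, which had 4.06 CPM. Mrpl17, the bL17 protein near the tunnel exit, was named after its values were seen, with 51.5, 52.6 and 62.7 CPM in farnesol and 47.3, 47.0 and 48.9 CPM in vehicle libraries. Farnesol replicate 3 was its highest library, and all farnesol values lay above all vehicle values (log2 fold change 0.22, standard error 0.17).

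Of the mitochondria-specific proteins of the large subunit, Mrpl39 and Mrpl44 had groups that did not overlap, in opposite directions. Mrpl39 had 19.2, 20.5 and 17.7 CPM in farnesol and 16.7, 14.1 and 12 CPM in vehicle libraries. Every farnesol library was above every vehicle library, with a log2 fold change of 0.43 (fold 1.34, 95% interval 0.964 to 1.88) that was 0.42 without farnesol replicate 1. Mrpl44, a protein with a ribonuclease III fold, had 13.5, 11.6 and 13.3 CPM in farnesol and 14.7, 14.2 and 20.3 CPM in vehicle libraries. Its farnesol values all lay below its vehicle values, and vehicle replicate 3 was the highest library by a wide margin. The log2 fold change was -0.36 with a standard error of 0.25 (fold 0.780, 95% interval 0.548 to 1.11), and -0.17 without vehicle replicate 3. Mrpl44 shares exonic bases with Wdfy1 on the opposite strand, which had 26.9 CPM and a log2 fold change of -0.59.

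The factor-binding stalk recruits the translation factors that drive each step of elongation. Its 5 genes, Mrpl10, Mrpl11, Mrpl12, Mrpl53 and Mrpl54, all had log2 fold changes above 0, from 0.13 to 0.29, with a median of 0.16. Without farnesol replicate 1 they ran from -0.04 for Mrpl11 to 0.30 for Mrpl10. Mrpl54 had 71.0, 55.3 and 66.2 CPM in farnesol and 49.6, 51.1 and 56.7 CPM in vehicle libraries. Its groups overlapped through farnesol replicate 2 and vehicle replicate 3 (log2 fold change 0.29, standard error 0.17). Mrpl12, the protein that forms the tip of the stalk, had 90.1, 86.5 and 83.0 CPM in farnesol and 76.4, 75.5 and 85.3 CPM in vehicle libraries, and its groups overlapped too.

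The 6 genes of the central protuberance, the ridge of the large subunit that faces the small one, also all had values above 0, from 0.05 to 0.40, with a median of 0.18. Without farnesol replicate 1 Mrpl40 was at -0.37 and the other 5 stayed above 0, from 0.03 to 0.46. At its upper end was Mrpl48, with 16.3, 19.3 and 17.7 CPM in farnesol and 17.5, 13.2 and 9.83 CPM in vehicle libraries, which overlapped through vehicle replicate 1. At its lower end was Mrpl38, with 30.5, 29.3 and 29.4 CPM in farnesol and 27.2, 29.5 and 29.5 CPM in vehicle libraries, so its 6 values were nearly level. Mrpl40, also of the protuberance, had 25.7, 13.6 and 12.3 CPM in farnesol and 18.2, 19.9 and 11.9 CPM in vehicle libraries, and farnesol replicate 1 alone lay above the vehicle range. The 6 genes grouped around the exit tunnel were mixed, with 4 above 0 and 2 below. They ran from 0.24 for Mrpl23 to -0.12 for Mrpl22, with a median of 0.15. Mrpl4, given above with 0.34, was placed in the core and not in this group. Mrpl45, which anchors the ribosome to the inner membrane, had 63.3, 64.8 and 60.8 CPM in farnesol and 62.9, 60.6 and 50.9 CPM in vehicle libraries. Its groups overlapped, and only vehicle replicate 3 lay clearly apart.

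In the small subunit by name, Mrps18a had the smallest p. Its 38.7, 38.9 and 30.9 CPM in farnesol libraries stood against 26.9, 25.2 and 27.5 CPM in vehicle libraries. The groups did not overlap, and farnesol replicates 1 and 2 were far above every vehicle library. The log2 fold change was 0.45 with a standard error of 0.19 (fold 1.36, 95% interval 1.04 to 1.79, unadjusted p = 0.0283 and adjusted p = 1.0 in edgeR), and 0.39 without farnesol replicate 1. Mammals have 3 paralogs of the bacterial S18 protein, and Mrps18b and Mrps18c are the others. Mrps18b had 39.6, 28.5 and 27.3 CPM in farnesol and 31.6, 24.4 and 30.8 CPM in vehicle libraries, and Mrps18c had 13.2, 15 and 16.4 CPM in farnesol and 11.3, 14.8 and 14.7 CPM in vehicle libraries. Both overlapped between groups, with log2 fold changes of 0.13 each, and that of Mrps18b was -0.05 without farnesol replicate 1.

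Mrps21, the bS21 protein, had 160, 134 and 134 CPM in farnesol and 122, 125 and 98.6 CPM in vehicle libraries. Its groups did not overlap (log2 fold change 0.31, standard error 0.16, fold 1.24 with a 95% interval of 0.989 to 1.55), and vehicle replicate 3 was the lowest library. Mrps12, the uS12 protein at the decoding centre, had 61.6, 49.7 and 49.5 CPM in farnesol and 45.7, 42.2 and 42.7 CPM in vehicle libraries. Again no values overlapped, with a log2 fold change of 0.30 that was 0.19 without farnesol replicate 1. Mrps9, the uS9 protein, ran the other way, with 16.7, 13.8 and 16.3 CPM in farnesol and 19.0, 18.1 and 17.5 CPM in vehicle libraries. Its farnesol values all lay below its vehicle values, with a log2 fold change of -0.22 and an interval that held no difference (fold 0.856, 95% interval 0.620 to 1.18), and it was -0.28 without farnesol replicate 1.

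**Figure D5:**
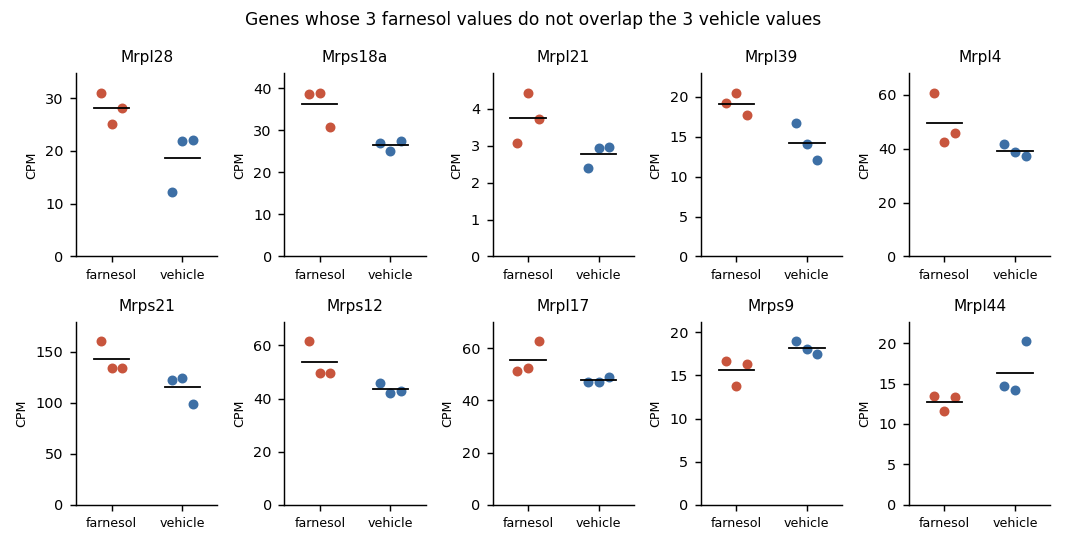
CPM per library (points) and group mean (lines) of the 10 genes whose 3 farnesol values do not overlap their 3 vehicle values, on axes that start at 0. The first 8 panels have farnesol above vehicle and the last 2, Mrps9 and Mrpl44, have it below; several pairs are parted by less than the spread within a group.

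Other genes with lower values had overlapping groups. Mrps30 had 49.0, 45.0 and 54.5 CPM in farnesol and 56.8, 44.6 and 59.7 CPM in vehicle libraries, a log2 fold change of -0.12. Mrps25, a protein of the small subunit, had 60.6, 60.9 and 54.8 CPM in farnesol and 73.3, 59.8 and 57.5 CPM in vehicle libraries. Its log2 fold change of -0.11 was 0.00 without vehicle replicate 1, the only library that stood clearly above the rest. Mrpl22, Mrps14 and Mrps33 had log2 fold changes of -0.12, -0.07 and -0.08, each under its standard error of 0.24, 0.21 and 0.25. Mrps27, an RNA-binding pentatricopeptide repeat protein, had 5.64, 7.11 and 5.68 CPM in farnesol and 4.70, 6.58 and 9.32 CPM in vehicle libraries, so that vehicle libraries held both extremes. Mrps36 and Mrps28 went the other way, with higher means in farnesol and overlapping groups. Mrps36 had 29.5, 20.8 and 24.6 CPM in farnesol and 22.7, 22.3 and 20.3 CPM in vehicle libraries, a log2 fold change of 0.20. Mrps28, noticed after its values were seen, was the most uneven gene: it had 84, 221 and 77 counts in farnesol and 19, 125 and 111 counts in vehicle libraries. Its fold of 1.42 had a 95% interval of 0.497 to 4.07.

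Abundance varied far more between genes of the ribosome than between groups. The kit reads near the 3′ end, so its counts need no division by length. In CPM, levels over the 6 libraries ran from 3.26 for Mrpl21 to 136 for Mrpl42. Medians were 30.6 CPM for Mrpl and 24.5 CPM for Mrps genes. Divided by the longest transcript, levels ran from 1.03 CPM per kb for Mrpl15 to 264 CPM per kb for Mrps21. The medians were then 18.1 CPM per kb for Mrpl and 13.6 CPM per kb for Mrps genes. Their ranges of 1.03 to 201 and 3.04 to 264 overlapped almost wholly. After Mrps21 came Mrpl34 at 201, Mrpl53 at 135, Mrpl14 at 117 and Mrpl54 at 96.6 CPM per kb. With 3′ counts such a division places genes with short transcripts higher, so the order per kb is not one of abundance.

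Of the 5 genes highest in CPM, Mrps21 had groups that did not overlap, as given above, and the other 4 overlapped. Mrpl42, the highest in CPM, had 162, 126 and 139 CPM in farnesol and 118, 147 and 123 CPM in vehicle libraries. Mrpl51 had 139, 131 and 125 CPM in farnesol and 122, 117 and 127 CPM in vehicle libraries. Mrpl34, the bL34 protein, had 144, 121 and 125 CPM in farnesol and 126, 109 and 106 CPM in vehicle libraries. In each of these 3 a vehicle library exceeded a farnesol library. Mrpl18, the uL18 protein of the central protuberance, likewise overlapped, with 130, 115 and 123 CPM in farnesol and 121, 99.4 and 106 CPM in vehicle libraries; it shares exonic bases with Tcp1, at 112 CPM, on the opposite strand. Among scarce genes, Mrpl15 had 2.38, 4.44 and 7.12 CPM in farnesol and 6.42, 3.95 and 4.15 CPM in vehicle libraries, so farnesol libraries held both extremes. Mrps11 and Mrpl9 had log2 fold changes of 0.10 and -0.07 with standard errors of 0.32 and 0.30.

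The genes are scattered over 17 chromosomes, with at most 10 on any 1 of them (chromosome 11). Promoters from 250 bases before to 50 bases after the start were listed by RefSeq (GRCm38.p6) for 68 of 77 genes. Mrpl4, Mrpl13, Mrpl15, Mrpl19, Mrpl38, Mrpl54, Mrps28, Mrps34 and Mrps35 had none listed. The promoters of 5 genes whose groups did not overlap are printed, Mrpl28, Mrps18a and Mrps21 with farnesol values above and Mrpl44 and Mrps9 with farnesol values below, to show how unlike these starts are. Each is given 5′ to 3′ on the gene's strand, with matches to the motifs GCGC, any base, TGCGC (bound by NRF1), CCGGAAG (bound by ETS factors such as GABP) and AAGATGGC (bound by YY1), on either strand, in capitals.
Mrpl28 (chr17:26123253-26123552, plus strand): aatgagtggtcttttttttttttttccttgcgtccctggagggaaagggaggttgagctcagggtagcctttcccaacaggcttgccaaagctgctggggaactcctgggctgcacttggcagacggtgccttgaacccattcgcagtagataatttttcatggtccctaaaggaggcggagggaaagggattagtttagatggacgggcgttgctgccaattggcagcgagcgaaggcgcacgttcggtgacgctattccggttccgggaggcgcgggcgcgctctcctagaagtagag
Mrps18a (chr17:46110754-46111053, plus strand): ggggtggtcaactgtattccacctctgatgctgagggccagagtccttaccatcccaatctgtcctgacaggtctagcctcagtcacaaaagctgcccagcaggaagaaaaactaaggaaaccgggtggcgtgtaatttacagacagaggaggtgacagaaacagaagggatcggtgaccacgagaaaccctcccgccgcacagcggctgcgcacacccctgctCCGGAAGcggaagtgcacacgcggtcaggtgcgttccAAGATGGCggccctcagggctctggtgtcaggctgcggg
Mrps21 (chr3:95871465-95871764, minus strand): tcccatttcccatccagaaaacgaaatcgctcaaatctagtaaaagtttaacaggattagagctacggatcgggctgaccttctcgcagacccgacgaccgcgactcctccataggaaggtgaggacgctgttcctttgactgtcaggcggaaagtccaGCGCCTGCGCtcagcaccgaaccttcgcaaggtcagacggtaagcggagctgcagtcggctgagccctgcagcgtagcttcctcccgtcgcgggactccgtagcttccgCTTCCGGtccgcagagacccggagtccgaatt
Mrpl44 (chr1:79775768-79776067, plus strand): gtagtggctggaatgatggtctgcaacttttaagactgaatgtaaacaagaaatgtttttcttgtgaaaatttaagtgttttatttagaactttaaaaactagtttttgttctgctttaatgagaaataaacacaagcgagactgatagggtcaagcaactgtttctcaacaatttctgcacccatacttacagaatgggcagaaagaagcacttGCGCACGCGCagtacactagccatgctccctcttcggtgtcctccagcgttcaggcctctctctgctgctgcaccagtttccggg
Mrps9 (chr1:42850983-42851282, plus strand): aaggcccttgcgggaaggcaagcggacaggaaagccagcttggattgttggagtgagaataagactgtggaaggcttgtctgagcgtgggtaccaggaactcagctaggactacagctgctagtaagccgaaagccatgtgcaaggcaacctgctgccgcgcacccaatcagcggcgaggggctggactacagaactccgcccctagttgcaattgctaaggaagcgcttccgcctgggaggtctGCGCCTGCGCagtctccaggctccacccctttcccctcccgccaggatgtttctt

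The 5 windows shared no layout. Mrpl28 matched none of the 3 motifs, Mrps18a had an ETS match 26 bases before and a YY1 match 11 bases after the start, and Mrps21 had an NRF1 match 91 bases before and an ETS match 18 bases after it. Mrpl44 and Mrps9 each had an NRF1 match, 35 and 5 bases before the start. Over the 68 genes, the NRF1 motif was in 13 (19.1%), against 11.7% of 8863 tested genes and 5.19% of all 27025 genes with a listed promoter. The ETS motif was in 25 (36.8%), against 20.0% and 9.93%. The YY1 motif was in 12 (17.6%), against 5.45% and 3.19%. At least 1 of the 3 was in 42 (61.8%), against 32.5% and 16.4%, and matches to different motifs overlapped in none of these genes' promoters. The letters TATAAA were in 5 (7.35%), against 9.07% and 15.7%, and CACGTG in 5 (7.35%), against 12% and 8.09%. Median GC content was 58.0% for the 68 genes, against 60.8% for tested genes and 52.8% for all genes.

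Median fold changes were close with and without a motif match. The 42 genes with any of the 3 motifs had a median log2 fold change of 0.14 with 35 above 0, and the 26 without had 0.13 with 20 above 0. With the NRF1 motif the median was 0.12 with 9 of 13 genes above 0, and without it 0.14 with 46 of 55. For the ETS motif these values were 0.15 with 21 of 25, and 0.13 with 34 of 43. For the YY1 motif they were 0.15 with 11 of 12, and 0.13 with 44 of 56. The 8 genes with 2 or more of the 3 motifs had a median of 0.20 with 6 above 0. These groups were described only, with no test. By subunit, the NRF1 motif was in 23.8% of 42 Mrpl and 11.5% of 26 Mrps promoters, the ETS motif in 33.3% of Mrpl and 42.3% of Mrps promoters, and the YY1 motif in 14.3% of Mrpl and 23.1% of Mrps promoters.

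Other genes of mitochondrial translation were taken from lists by function, and 0 genes of any of these lists passed the adjusted threshold. The 6 mitoribosomal proteins without an Mrp symbol (Dap3, Ptcd3, Chchd1, Aurkaip1, Gadd45gip1 and Ict1) all had log2 fold changes above 0, with a median of 0.21, and none had groups that did not overlap. Ict1, a peptidyl-tRNA hydrolase built into the large subunit, had 44.3, 37.5 and 29.5 CPM in farnesol and 29.6, 27.7 and 34.9 CPM in vehicle libraries. Without farnesol replicate 1 this list's median was 0.05, with 3 of 6 above 0, and without vehicle replicate 2 it was 0.13.

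Of 23 assembly and ribosomal RNA modification genes, 14 were above 0 and 9 below, with a median of 0.15 that was -0.05 without farnesol replicate 1 and 0.07 to 0.15 without each of the others. Mterf4, which works with the methyltransferase Nsun4 on the small subunit RNA and in joining the subunits, had 13.0, 8.70 and 11.8 CPM in farnesol and 5.85, 5.57 and 8.56 CPM in vehicle libraries. Its groups barely failed to overlap (log2 fold change 0.74, unadjusted p = 0.0238 and adjusted p = 1.0 in edgeR). Ftsj2, the 2′-O-methyltransferase of the large subunit RNA also called Mrm2, had 6.17, 6.78 and 6.81 CPM in farnesol and 4.51, 3.34 and 3.98 CPM in vehicle libraries, with a clear gap between groups. Eral1, a chaperone of the small subunit RNA, had a log2 fold change of -0.61.

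Of translation factors, 9 of 13 were above 0 with a median of 0.10. Of tRNA ligases of the mitochondrion, 12 of 20 were above 0 with a median of 0.02. Only the ligase median lay near the -0.01 of all tested genes, and the median of the 77 genes was 0.13. When each library was left out in turn, the factor medians ran from 0.03 to 0.16 and the ligase medians from -0.02 to 0.06. The factor and the ligase gene of smallest p in edgeR were Taco1 and Vars2. Their groups overlapped, with log2 fold changes of 0.85 and -0.45. Next came the release factor gene Mtrf1, with 9.43, 9.37 and 12.3 CPM in farnesol and 8.24, 9.21 and 5.51 CPM in vehicle libraries. The serine ligase gene Sars2 followed Vars2, with 3.44, 3.60 and 1.75 CPM in farnesol and 4.89, 4.05 and 5.00 CPM in vehicle libraries. The groups of Mtrf1 and Sars2 were separate, Mtrf1 with farnesol above and Sars2 with farnesol below vehicle. Of the 13 factors, 1 had all farnesol values above and 0 had all below the vehicle values. Of the 20 ligases, 1 had all above and 2 had all below, against 4.75% and 4.07% of all tested genes. The elongation factor partner Tsfm had a log2 fold change of -0.42.

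The nuclear genes for the complexes that mitoribosome products join were examined for comparison. Of 80 nuclear subunits of oxidative phosphorylation, 74 were above 0 with a median log2 fold change of 0.20, and 10 had an unadjusted p under 0.05, all higher, against 1.75% of all tested genes that were higher at that p. Without farnesol replicate 1 the median was 0.09 with 67 above 0. Of 79 cytosolic ribosomal proteins, 69 were above 0 with a median of 0.07, and 55 with a median of 0.05 without that library. The cytosolic median was 0.15 without vehicle replicate 1, 0.14 without farnesol replicate 3 and 0.03 without vehicle replicate 3. The summed level of the 77 mitoribosomal genes was 12.8%, 13.8% and 13.3% of that of the oxidative phosphorylation genes in farnesol and 14.3%, 13.3% and 13.5% in vehicle libraries. Against cytosolic ribosomal protein genes it was 25.4%, 23.1% and 26.3% in farnesol and 22.2%, 24.1% and 25.1% in vehicle libraries. Both ratios of summed CPM overlapped between groups.

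Markers of other cells differed between libraries too. Of 10 adipocyte markers, 9 had log2 fold changes above 0 with a median of 0.39, and their summed level was 1038 to 1233 CPM in farnesol and 867 to 1131 CPM in vehicle libraries. Their median was 0.22 without farnesol replicate 1, 0.27 without vehicle replicate 2, 0.61 without vehicle replicate 1 and 0.65 without vehicle replicate 3. Of 6 erythroid markers, 4 were above 0 with a median of 0.40, and their summed level was 5388 to 9596 CPM in farnesol and 3451 to 5592 CPM in vehicle libraries. The erythroid median was 0.32 without farnesol replicate 1. Both sums were highest in farnesol replicate 1, where the mitoribosomal sum was highest too. None of the 10 adipocyte markers was at 0 in a library. Of 8 macrophage markers 1 was above 0, with a median of -0.25. Their direction rested on vehicle replicate 3: without it 5 of 8 were above 0, with a median of 0.28. The part of these cells in the values of the mitoribosomal genes was not tested.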

How the data were processed

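RNA of gastrocnemius muscle (500 ng per library) was made into 3′ libraries with a Lexogen Quant-Seq kit, per the labels' protocols. The deposited tables hold whole-number read counts, with gene symbols as row names. Bowtie2, bedtools and mm10 are listed by the submitters' processing notes; for annotation, strand and copied reads nothing is given in the sources used here. Counts of repeated symbols were summed. Libraries were grouped by title (n = 3 each). edgeR 4.0.16 in R 4.3.3 tested farnesol against vehicle over 11674 genes that passed filterByExpr, with TMM factors, robust quasi-likelihood fits and Benjamini-Hochberg adjustment at 0.05. The fit was tested on simulated data. CPM used the scaled library sizes; standard errors were the log2 fold change divided by the root of F. The common biological coefficient of variation was 25.7%. Library pairs differed beyond sampling noise, so none was counted as a duplicate. DESeq2 1.42.0, limma-voom (limma 3.58.1), other scalings and filters, a replicate block and each library left out were alternatives.

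The group of genes and the other lists were chosen with earlier results of these data known, although the rule that gave the 77 members reads symbols alone. Genes named were the 8 of smallest p with higher and the 8 with lower farnesol values, the 5 most and 5 least abundant in CPM, the Mrps18 paralogs, Mrps30, Mrps36 and, of each list, up to 3 of smallest p. Other genes were named after their values were seen, to give groups that did not overlap (Mrpl17), an uneven gene (Mrps28) or examples of a structural site (Mrpl12, Mrpl23, Mrpl38, Mrpl40, Mrpl45, Mrpl48). Structural places come from general knowledge. Positions and promoters are from RefSeq (GRCm38.p6, the chromosomes of mm10, 1-based), and transcript lengths and overlaps from GENCODE vM21. The values of 1 marker gene are not reported here.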

Additional observations from a re-analysis of the deposited data

How the results depend on the processing

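No mitoribosomal gene passed the adjusted threshold under DESeq2 size factors, upper-quartile factors, library totals, no filter, a mean of at least 5 CPM (75 genes tested), DESeq2, limma-voom, the replicate block, without Rn45s, or with any library left out. Under all of these except leaving out a library, the median stayed at 0.13 to 0.16, 62 to 64 genes were higher in farnesol, and 7 to 10 had groups that did not overlap. Of all genes tested in these fits, 48.7% to 51.6% were higher and 6.70% to 8.87% had groups that did not overlap. Replicate numbers are not said to pair the libraries. Deviations of same-numbered libraries correlated across genes at 0.08, 0.11 and 0.01, against -0.12 to 0.04 for libraries of different numbers. By these values 4 of 6 libraries were closest to the library of their own number. With so few libraries, such low correlations cannot settle whether the libraries were paired. The replicate block gave a median of 0.14, 63 higher genes and 4 of 77 genes with an unadjusted p under 0.05 in edgeR. In the same fit 428 of all 11674 tested genes had such a p.

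With each library left out in turn, 0 to 0 genes were called, the median ran from 0.07 to 0.17 (large 0.11 to 0.18, small 0.06 to 0.14), the difference of medians from 0.0010 to 0.11, higher genes from 57 to 65 and the log2 ratio of summed CPM from 0.08 to 0.18. Of all genes tested in these fits, 48.7% to 50.4% were higher in farnesol. Groups that did not overlap numbered 16 to 23, since fewer samples overlap less often (17.8% to 19.4% of all genes). The sign turned at least once for 27 of the 77 genes. Among those named by rule these were Mrpl15 (-0.51 to 0.25), Mrps11 (-0.067 to 0.31), Mrpl9 (-0.25 to 0.10), Mrps18b (-0.055 to 0.23), Mrps14 (-0.24 to 0.038), Mrps33 (-0.28 to 0.031), Mrps25 (-0.18 to 0.0022) and Mrps27 (-0.37 to 0.13), and among the others were Mrpl40 (-0.37 to 0.24), Mrps28 (-0.05 to 0.997) and Mrpl11 (-0.04 to 0.29); the cause was not tested. Over all genes, 13 were called with no filter, 3 without vehicle replicate 2 and 0 in every other fit. Scarce genes such as Mrpl21 and Mrpl15 had few counts and wide intervals.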
